A study of Mus musculus with 2 samples.

Results

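Sox genes outside the endothelial SoxF group were examined as 9 genes, chosen by symbol, among 19532 genes measured. They were Sox4, Sox11 and Sox12 of the SoxC subgroup, Sox5, Sox6 and Sox13 of the SoxD subgroup, and Sox8, Sox9 and Sox10 of the SoxE subgroup. All probes of the array annotated to these symbols were taken, 25 of 41174 probes. Each of 2 two-colour Agilent arrays carried total RNA of an untreated mouse lung sample taken without culture (Mouse lung-1 or Mouse lung-2, labelled with Cy3) and of cultured mouse embryonic fibroblasts (MEF, labelled with Cy5). The MEF cells, fibroblasts grown out of embryos, were the control and were kept in DMEM with heat-inactivated fetal bovine serum and non-essential amino acids. The labels give no strain, age, sex or number of animals, and do not state whether the lung samples came from separate animals and whether 1 MEF preparation served both arrays. Dyes were not swapped, so a dye effect and the lung-MEF difference cannot be told apart.

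Sox proteins are transcription factors that bind the minor groove of DNA through an HMG box and bend it. SoxC proteins activate genes in neural and mesenchymal progenitors and promote their survival. SoxE proteins specify chondrocytes (Sox9) and neural crest, glial and pigment cells (Sox10), and SoxD proteins, which lack a transactivation domain of their own, act with them as partners, as Sox5 and Sox6 do with Sox9 in cartilage. In the mouse lung, Sox9 is known from the epithelium of the embryonic bud tips and from the cartilage of the large airways.

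Values are log2 ratios of lung over MEF, as deposited and averaged over the probes of a gene on each array. They are ratios within a gene and not levels, so they do not show which Sox gene was expressed most. Neither base nor direction of the deposited logarithm is stated. All 22 values of the 11 measured genes of a lung list (surfactant and club cell genes) were positive, and on that basis positive values were read as higher in lung. This is opposite to Agilent's usual Cy5 over Cy3, and if it is wrong, all directions given here turn round. The 12 genes of the fibroblast list ranged from -7.62 to -2.66 and the 10 endothelial genes from 2.81 to 7.95. A gene was called by limma's moderated test of the ratio against 0, with Benjamini-Hochberg adjustment over all genes and a threshold of 0.05. Its p-values rest on the spread between 2 arrays, each with its own lung sample, and that spread may be technical. Because 76.2% of all genes were called (42.8% of those higher in lung, and 63.6% with the arrays centred on the receptor genes), the size of a ratio was also set against that of 1047 genes for smell and pheromone receptors (olfactory and vomeronasal), whose usual site of expression is the nose. The central 95% of their ratios, called the receptor range, was bounded by -1.39 and 1.22 for lung replicate 1 and by -1.45 and 1.23 for lung replicate 2.

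All 3 SoxD genes were higher in lung, and all 3 SoxC and all 3 SoxE genes were lower. No difference between subgroups was tested. The median log2 ratio was 0.96 for SoxD, -0.77 for SoxC and -1.88 for SoxE, against -0.21 over all genes. The first and second of these medians are the values of Sox5 and Sox11, each of which rests largely on 1 probe: without it Sox5 was at 0.10 and no longer called, and Sox11 at -0.24. All 9 passed the test, 3 higher and 6 lower, where 32.6% of all genes were called higher and 43.6% lower, so the number of calls says little about these genes. On both arrays 1 member (Sox13) was at least 2-fold higher and 3 (Sox4, Sox8 and Sox9) at least 2-fold lower, against 17.1% and 15.4% of all genes (32.5% in either direction). With the arrays centred on the median of all genes Sox5 joined the higher ones, which made 5 members, and with centring on the receptor genes Sox5 and Sox6 did, which made 6. As deposited, the same 4 genes lay outside the receptor range, 1 above and 3 below, against 14.6% and 8.78% of all genes (23.4% together). The other 5 lay within it, where a ratio has the size seen in receptor genes.

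**Figure D1:**
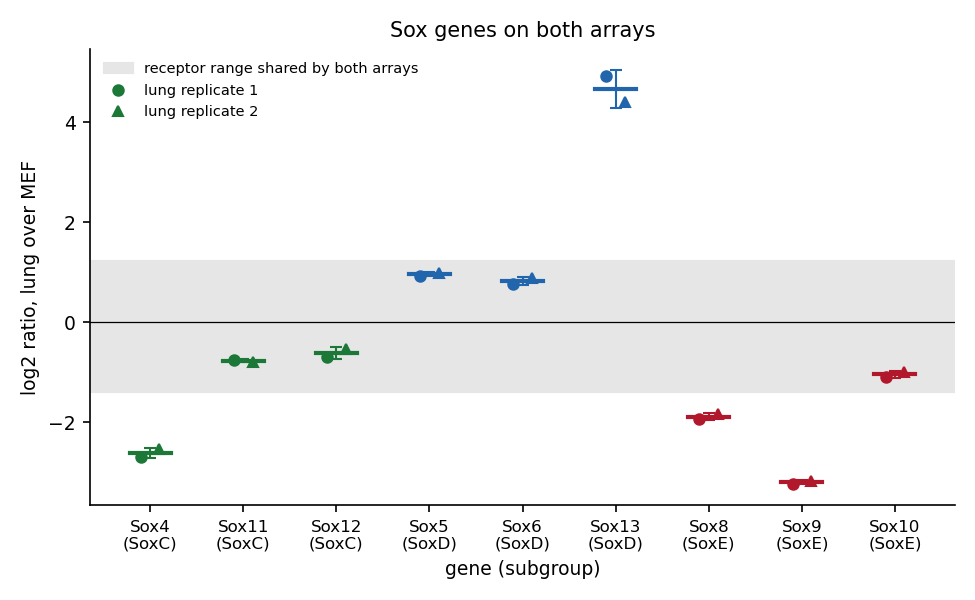
Log2 ratio of lung over MEF (vertical axis) of the 9 Sox genes (horizontal axis, with subgroup), as the mean of each gene's probes. Circles and triangles are lung replicates 1 and 2, bars the mean with its SD (n = 2), and the grey band the receptor range common to both arrays. Sox13 stood above the band at 4.66, and Sox4, Sox8 and Sox9 below it between -3.19 and -1.88.

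The mean of each gene had the same sign on both arrays. From the highest ratio to the lowest the order was Sox13, Sox5, Sox6, Sox12, Sox11, Sox10, Sox8, Sox4 and Sox9, on both arrays. For none of the 8 neighbouring pairs in that order did the values of the 2 arrays overlap. The ranges over probes did overlap for 6 of the 8 pairs, all but Sox13 with Sox5 and Sox6 with Sox12. The order within those 6 pairs therefore depends on the probes averaged. Sox13 had the widest gap between the arrays, 0.54, and the other 8 genes differed by 0.17 or less, where the median gap over all genes was 0.08.

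**Figure D2:**
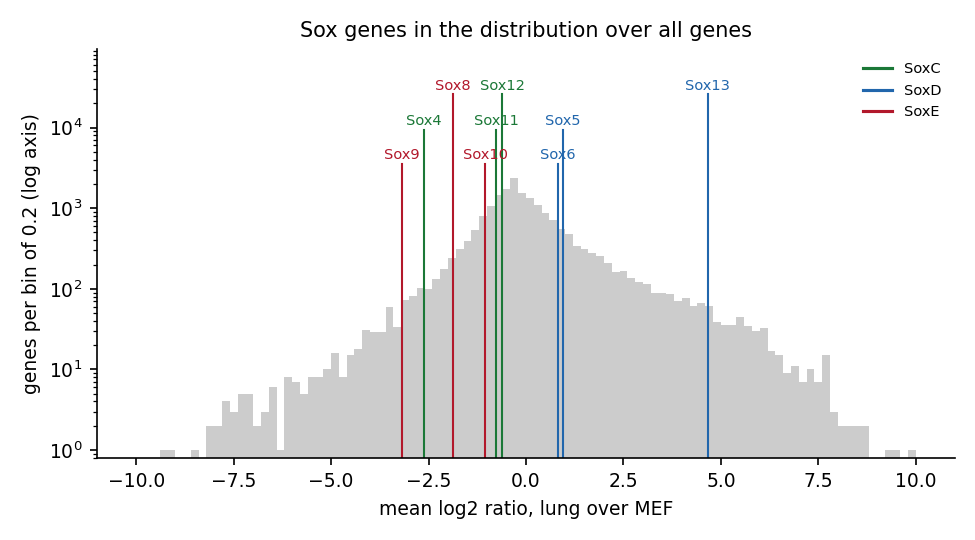
Number of genes per bin of 0.2 (vertical log axis) by mean log2 ratio of lung over MEF (horizontal axis) for all 19532 genes, with the 9 Sox genes as coloured lines whose heights only separate the names. Sox13 lay above 97.9% of genes, and Sox9 above 1.65%.

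Sox13 was the SoxD gene with the largest ratio. It encodes a factor known in the mouse from the arterial wall and from gamma-delta T cells. Its log2 ratio was 4.93 on lung replicate 1 and 4.39 on lung replicate 2, both far above the receptor range. The mean was 4.66 ± 0.38 (SD, n = 2), or 25.3-fold higher in lung (95% confidence interval of the log2 ratio 3.94 to 5.38, limma adjusted p = 0.00305). Read as a natural logarithm, the same value would be 106-fold. Only 402 genes were at or above this rank, with Sox13 included. The value rests on 1 probe, so no second probe bears on it. Of the T lymphocyte list 5 of 6 measured genes were higher in lung (median 2.51), as were all 10 endothelial markers (median 4.29). Of 8 smooth muscle markers, 1 was higher and 7 were lower (median -1.72). Over all genes, 32.6% were called higher and 43.6% lower. Blk was the gene of that T lymphocyte list that was not called, at 1.27 and 0.52 on lung replicates 1 and 2 (limma adjusted p = 0.0768). The gamma-delta T cell receptor gene Trdc and Lck had no probe. The part of these markers in the Sox13 ratio was not tested. In bulk RNA more cells of a type and more RNA per cell cannot be told apart.

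The start region of Sox13 is shown together with that of Sox4, since these were the members with the highest and the lowest ratio among those with a single probe. Both are RefSeq windows of the mouse build GRCm38.p6, from 250 bases before to 50 after the annotated start. Sox13 lies on the minus strand at chr1:133424163-133424462 and Sox4 on the minus strand at chr13:28953650-28953949. Capitals mark CCAAT or its reverse complement ATTGG, the CCAAT box.
Sox13: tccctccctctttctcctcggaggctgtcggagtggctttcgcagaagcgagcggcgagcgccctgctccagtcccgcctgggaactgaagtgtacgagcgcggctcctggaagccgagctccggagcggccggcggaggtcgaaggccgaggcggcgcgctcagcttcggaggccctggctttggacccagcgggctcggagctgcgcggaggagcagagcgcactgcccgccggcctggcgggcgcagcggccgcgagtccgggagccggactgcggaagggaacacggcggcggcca
Sox4: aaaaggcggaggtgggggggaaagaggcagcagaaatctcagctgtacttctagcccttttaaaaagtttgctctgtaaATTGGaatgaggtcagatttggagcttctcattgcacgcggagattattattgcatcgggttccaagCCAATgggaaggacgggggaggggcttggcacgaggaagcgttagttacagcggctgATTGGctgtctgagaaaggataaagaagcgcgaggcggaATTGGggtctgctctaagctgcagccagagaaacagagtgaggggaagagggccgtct
The Sox4 window held 4 CCAAT boxes, and the Sox13 window none. Of 32851 windows of this length, 37.4% held at least 1 such box and 1.06% held 4 or more. Boxes were found in members of both directions. The windows of Sox11 and Sox12, lower in lung like Sox4, held 1 box each. Of the 6 windows of Sox6, which was higher in lung, 3 held a box, with 4 in the richest. The windows of Sox5, higher in lung, and of Sox8, lower in lung, held none. The Sox13 window was richer in CpG, with 40 CpG dinucleotides against 12 for Sox4 and a median of 7 over all windows.

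Sox5 and Sox6, the partners of Sox9 in cartilage, had small ratios in the direction opposite to Sox9. Sox5 was at 0.93 and 0.98 on lung replicates 1 and 2, a mean of 0.96 ± 0.04 (SD, n = 2), or 1.94-fold higher in lung (limma adjusted p = 0.0029). Sox6 was at 0.77 and 0.88, a mean of 0.83 ± 0.08, or 1.77-fold higher (limma adjusted p = 0.00492). Neither gene left the receptor range.

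The probes of Sox5 did not give 1 value. The highest of its 4 probes was at 3.46 and 3.61 on lung replicates 1 and 2, or 11.6-fold higher in lung. The next was at 0.67 and 0.56, and the other two were at -0.03 and -0.11 and at -0.39 and -0.13. So 1 probe was above the range of single receptor probes on both arrays and 3 were within it. Without the highest probe the mean of Sox5 was 0.10 (limma adjusted p = 0.099), which is no longer a call, and the median of the 4 probes was 0.27, or 1.21-fold. A spread of 3.80 between the highest and lowest probe, as for Sox5, was reached by 8.56% of the 701 genes with 4 probes. Of the 4 records the probes were designed on, 2 were the RefSeq transcript and 2 were other cDNA records. The highest probe and the one at -0.03 and -0.11 both belonged to the RefSeq transcript, so the record did not separate high from low. Sox5 is known to have a shorter transcript in mouse testis. The place of the probes in the transcripts was not used here, so which transcript each one measured is not known. Among motile cilium genes, whose cells have been linked to short Sox5 in man, all 9 measured were higher in lung (median 3.46). Over all genes, 32.6% were called higher. Spag6 (1.04) and Tubb4b (0.68) lay within the receptor range. The part of motile cilium genes in the Sox5 ratio was not tested.

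Sox6, which also restrains embryonic globin genes in mouse red cell precursors, was more even across probes. Its 5 probes had mean log2 ratios from 0.51 to 1.33, all positive, and their spread was 0.82. Of the 216 genes with 5 probes, 93.5% had a spread at least as large. The highest probe was at 1.43 and 1.24 on lung replicates 1 and 2 and was the 1 probe above the receptor probe range. One of the other probes disagreed between arrays, with -0.04 on lung replicate 1 and 1.19 on lung replicate 2. Of the red cell markers, 4 of 7 were higher in lung and 1 lower, where 32.6% of all genes were called higher and 43.6% lower. The alpha globin gene Hba-a1 was at 7.03 and the haem synthesis gene Alas2 at 5.67. The erythropoietin receptor gene Epor (1.66) and Slc4a1 (0.85) were called higher too. Klf1, the transcription factor of red cell precursors, was called lower at -0.51. Epb42 (0.60) and Rhag (-0.44) were not called. The part of red cell markers in the Sox6 ratio was not tested.

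RefSeq lists 6 start windows for Sox6, and 5 of them held the Sox-type letters ACAAAG or AACAAT on either strand. Of the same 32851 windows, 27.0% held at least 1 of them. None of the 6 windows of the other 6 members in the table (Sox4, Sox5, Sox8, Sox11, Sox12 and Sox13) did. The Sox6 window with the most such matches, on the minus strand at chr7:115824661-115824960 of GRCm38.p6, is shown for that reason, with the 4 matches in capitals. None of the 4 overlapped another.
Sox6: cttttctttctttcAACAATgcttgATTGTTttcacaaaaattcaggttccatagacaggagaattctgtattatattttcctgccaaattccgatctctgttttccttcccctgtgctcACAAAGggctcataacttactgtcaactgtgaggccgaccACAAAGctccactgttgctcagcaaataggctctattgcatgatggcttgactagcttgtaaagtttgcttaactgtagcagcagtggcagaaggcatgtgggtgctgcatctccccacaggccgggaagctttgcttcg
A match is a run of letters in this window and not a shown binding site.

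**Figure D3:**
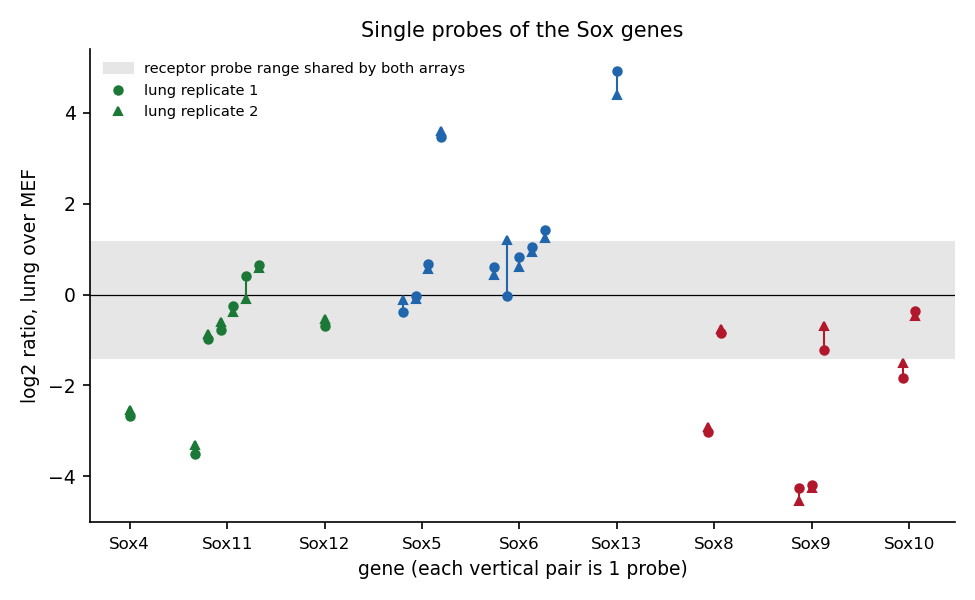
Log2 ratio of lung over MEF (vertical axis) of each of the 25 probes, grouped by gene (horizontal axis). A circle joined to a triangle is 1 probe on lung replicates 1 and 2, and the grey band is the central 95% of single receptor gene probes common to both arrays. One Sox5 probe and one Sox11 probe stand apart from the others of their gene, and the highest Sox9 probe lies inside the band.

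Over all members, 16 of the 25 probes lay within the range of receptor probes, 3 above it and 6 below. Of all 41174 probes, 15.6% lay above and 9.66% below. Fitted on their own, 8 probes were called higher and 13 lower, where 30.8% and 39.4% of all probes were, so these calls say little about the Sox probes. Of the 9 genes, 7 had all probes on 1 side of 0, and the exceptions were Sox5 and Sox11. When each probe was fitted separately, every probe of Sox13 passed as higher and every probe of Sox4, Sox12, Sox8, Sox9 and Sox10 as lower. Sox5, Sox6 and Sox11 did not meet this condition. Sox4, Sox12 and Sox13 had 1 probe each, for which the condition asks least.

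SoxE genes were lower in lung, with Sox9 the lowest of all 9 members. Sox9, the factor that commits cells to cartilage, was at -3.22 on lung replicate 1 and -3.16 on lung replicate 2. Its mean was -3.19 ± 0.04 (SD, n = 2), or 9.13-fold lower in lung (95% confidence interval of the log2 ratio -3.34 to -3.05, limma adjusted p = 0.00161), and 1.65% of genes had a lower ratio. Of its 3 probes, 1 was at -4.26 and -4.54 on lung replicates 1 and 2 and another at -4.19 and -4.25. The third was at -1.22 and -0.69, within the receptor probe range. Without that probe the mean was -4.31 (limma adjusted p = 0.00165), and the median of the 3 probes was -4.22, or 18.6-fold lower. Sox9 was thus lower on every probe, by 1.93-fold on one and by 18.6- and 21.1-fold on the others.

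Sox8, a close relative of Sox9 with milder loss-of-function effects in the mouse, was at -1.94 and -1.83 on lung replicates 1 and 2. The mean was -1.88 ± 0.07 (SD, n = 2), or 3.69-fold lower in lung (limma adjusted p = 0.00201). Its 2 probes differed in size: one was at -3.02 and -2.91, the other at -0.85 and -0.75. The second probe lay within the receptor probe range, and 12.7% of the 5405 genes with 2 probes had a spread as large.

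Sox10, which marks neural crest derivatives, was at -1.10 and -0.99 on lung replicates 1 and 2, inside the receptor range. The mean was -1.04 ± 0.08 (SD, n = 2), or 2.06-fold lower in lung (limma adjusted p = 0.00365). One probe was at -1.83 and -1.51 and the other at -0.36 and -0.46. Against a 2-fold change, limma gave an adjusted p of 0.71 for Sox10, while Sox8 (0.00651) and Sox9 (0.00234) passed.

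SoxC genes were lower in lung, and Sox4 was the only one of them outside the receptor range. Sox4, needed in the mouse for heart outflow valves and early B lymphocytes, was at -2.68 and -2.53 on lung replicates 1 and 2. The mean was -2.61 ± 0.10 (SD, n = 2), or 6.10-fold lower in lung (95% confidence interval of the log2 ratio -2.84 to -2.38, limma adjusted p = 0.00188), and it rests on 1 probe. Of the B lymphocyte markers, 4 of 7 were higher in lung and 0 lower by limma, with a median of 0.59. Over all genes, 32.6% were called higher and 43.6% lower. The highest markers were Cd79b at 6.83 and Ms4a1 at 4.95, while Cd79a was called higher at 0.59 and Pax5 (-0.21) was not called. Of the early B cell genes, Vpreb1 was called higher at 0.60, and Rag1 (-0.10) and Rag2 (-0.15) were not called. Their part in the Sox4 ratio was not tested.

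Sox11, expressed in embryonic neurons and mesenchyme, was at -0.74 and -0.79 on lung replicates 1 and 2. The mean was -0.77 ± 0.03 (SD, n = 2), or 1.70-fold lower in lung (limma adjusted p = 0.00349). Its 6 probes spread far more widely than the 2 arrays. The lowest probe was at -3.50 and -3.32, or 10.6-fold lower in lung. The other 5 had means from -0.93 to 0.61, all within the receptor probe range, and 2 of them were positive. Without the lowest probe the mean was -0.24 (limma adjusted p = 0.0339), close to the median of -0.21 over all genes. Leaving out this probe was not combined with centring of the arrays. Of the 80 genes with 6 probes, 12.5% had a spread of at least the 4.02 seen for Sox11.

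Sox12, the SoxC gene whose loss mice tolerate best, was at -0.69 and -0.53 on lung replicates 1 and 2 by its 1 probe. The mean was -0.61 ± 0.12 (SD, n = 2), or 1.53-fold lower in lung (limma adjusted p = 0.0126). It was the member nearest to 0. With the arrays centred on the receptor genes, whose medians were -0.41 and -0.43, Sox12 was at -0.20 and was not called (limma adjusted p = 0.112). The other 8 kept their direction and call under that centring.

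Genes that act with or downstream of these factors were taken from lists chosen by known function, though with earlier results of these data known. Of 16 cartilage genes, which Sox9, Sox5 and Sox6 activate in chondrocytes or which accompany them there, 12 were lower in lung, 2 higher and 2 not called (median -1.48). Over all genes, 43.6% were called lower and 32.6% higher. The fibrillar collagen gene Col11a1 was at -5.82 and -5.24 on lung replicates 1 and 2, a mean of -5.53 ± 0.41 (SD, n = 2). The matrix genes Matn3 (matrilin-3) and Comp (cartilage oligomeric matrix protein) had mean log2 ratios of -4.01 and -3.58. Col2a1, the collagen gene most closely tied to Sox9 and named after its value was seen, was at -3.02 and -2.88, with 1 of its 3 probes at -0.26. Matn4 (3.05) and Chad (chondroadherin, 2.92) were higher, and Cnmd (-0.29) was not called. Of the 16, 8 lay below the receptor range and 2 above it, against 8.78% and 14.6% of all genes. Fibroblast genes were lower as well, all 12 of them with a median of -6.16, and their part in the cartilage and Sox9 ratios was not tested.

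Genes of the Sox10 lineages were called in both directions, as were genes at large. Of 19 measured genes of neural crest, glial and pigment cells, 8 were higher in lung, 8 lower and 3 not called (median 0.08), where 32.6% of all genes were called higher and 43.6% lower. The endothelin receptor gene Ednrb (2.42), the myelin basic protein gene Mbp (2.01) and the pigment cell factor Mitf (2.00) were the highest. The probes of Mbp ranged from -0.46 to 3.47 and those of Mitf from -0.09 to 4.09. Ednrb and Mitf are also expressed outside these lineages. Fabp7, a fatty acid binding protein of glial precursors, was the lowest at -6.97 and -7.05 on lung replicates 1 and 2. The neural crest factor Pax3 was at -3.02 and the neurotrophin receptor gene Ngfr at -1.61.

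Of 6 genes placed downstream of Sox4 and Sox11, 4 were lower in lung, 1 higher and 1 not called (median -0.73). Over all genes, 43.6% were called lower and 32.6% higher, so this count says little about these genes. Tead2, a Hippo pathway factor activated by SoxC proteins in the mouse, was at -2.26 and -2.19 on lung replicates 1 and 2, below the receptor range. The microtubule regulator Stmn1 was at -1.03, the neuronal tubulin gene Tubb3 at -0.81 and Map2 at -0.65, all within the range. Stmn2, a neuronal relative of Stmn1, was higher at 1.94, with its 2 probes 4.34 apart, and Dcx (-0.28) was not called.

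Of 7 genes active beside Sox9 in the tips of the embryonic lung epithelium, 5 were higher in lung and 2 lower (median 0.96). Over all genes, 32.6% were called higher and 43.6% lower. Shh, the ligand secreted by lung epithelium, was at 5.42 and 5.30 on lung replicates 1 and 2. Mycn (1.43) and the FGF-induced factor Etv5 (1.09) were higher too. Its relative Etv4 was lower at -2.80, and so was the ligand gene Bmp4 at -0.65. Id2, a tip progenitor marker, was at 0.41. On this list Shh and Mycn were above the receptor range, and Etv4 was below it.

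**Figure D4:**
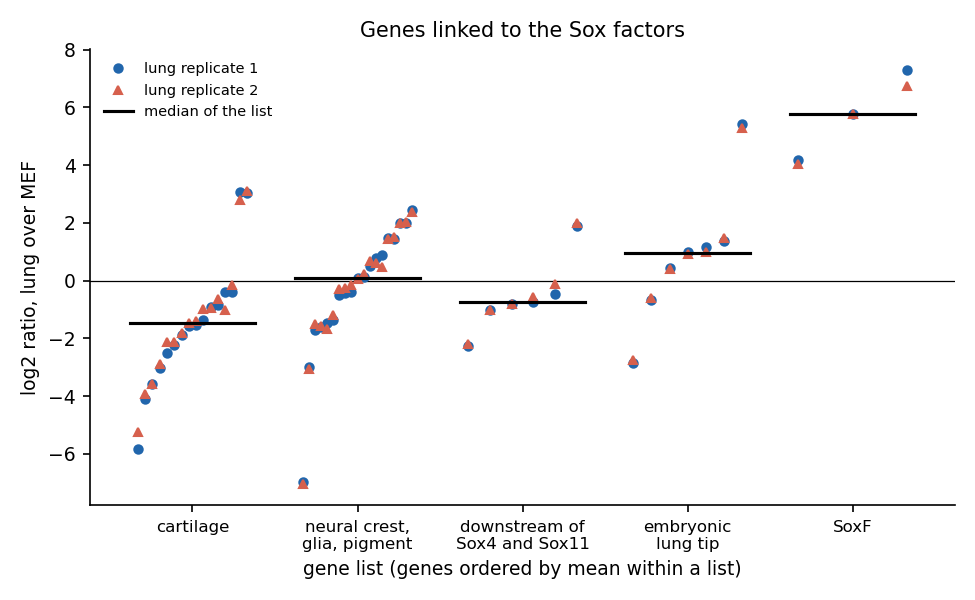
Log2 ratio of lung over MEF (vertical axis) of each measured gene of 5 lists (horizontal axis), ordered by mean within a list. Circles and triangles are lung replicates 1 and 2, and black lines the medians. Most cartilage genes lay below 0 (median -1.48), neural crest, glial and pigment genes lay on both sides (median 0.08), and all 3 SoxF genes lay above 4.

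The SoxF genes, which are active in endothelium, had larger ratios than any SoxC, SoxD or SoxE gene except Sox13. Sox7 was at 7.02, Sox18 at 5.77 and Sox17 at 4.10, with the 4 Sox17 probes between 0.97 and 9.01. Sox13 at 4.66 lay between Sox17 and Sox18.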

How the data were processed

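RNA of 2 lung samples was compared with MEF RNA on 2 two-colour arrays. The authors deposited 1 log ratio per probe and array, made with Agilent Feature Extraction per the submitters' processing notes. The software version and how background and dyes were corrected are not stated in the labels. Base, centring and direction of the deposited log2 values are not stated: sizes up to 10.1 were read as log2, and natural logarithms would give larger folds. Medians over genes were -0.22 and -0.14. Channel intensities were not used here, so depth means only that 2 arrays limit precision, and dim or saturated probes are unknown.

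Of 41174 probes, 32664 had 1 gene symbol in the platform annotation, 45 several and 8465 none. Those of a gene were averaged per array. Log2 ratios were fitted with an intercept in limma 3.58.1 (R 4.3.3, eBayes, two-sided, Benjamini-Hochberg over 19532 genes), with 1 residual degree of freedom plus 1.21 from moderation. The spread between MEF cultures is left out if 1 MEF preparation served both arrays, which the labels do not state. The fit was also run on simulated data in which few genes differed, all upward. That run gives no error rate for these data, where most genes were called. Every member and probe is named, and from each list at most the 3 highest and 3 lowest genes, unless stated. Cell type markers named beside a member are exceptions, named after their values were seen. Members and lists were chosen with earlier results of these data known. Alternatives covered centring, probe summary, test, logarithm base, probe annotation and single arrays. Promoter windows matched 7 of the 9 genes. Sox9 and Sox10 have none shown.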

Additional observations from a re-analysis of the deposited data

How the results depend on the processing

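With both arrays, all 9 members passed the limma test under centring on the median of all genes, the median of probes, robust moderation, natural logarithms, probes with several symbols, and genes with discordant probes left out. The median of probes moved Sox5 from 0.96 to 0.27 and Sox9 from -3.19 to -4.22. Centring on the receptor genes left 8. Without moderation 5612 genes were called in place of 14880, and 1 member, Sox9. Against a 2-fold change 4996 genes were called and 4 members. The smaller counts follow from the tests' own construction. With each probe fitted separately and all probes of a gene required to pass, 6 members remained. Read as natural logarithms, 8 members were 2-fold apart on both arrays, in place of 4. Leaving out a replicate gave 4 to 5 members 2-fold apart, Sox10 being the addition when lung replicate 2 was left out, and no test. An alternative chosen after seeing the data, leaving out the farthest probe, took Sox5 from 0.96 to 0.10 and Sox11 from -0.77 to -0.24. The mean or median ratio of each member kept its direction under each of these settings except separate probes, where Sox11 and Sox5 had probes on both sides of 0 and 1 Sox11 probe was called higher (0.61). No paired analysis was possible because the arrays form 1 group, each already a ratio of lung to MEF. The number of arrays, and probes whose signal over background is unknown, limit these values.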

Other observations

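The remaining Sox genes had smaller ratios than the SoxF genes. Sox2, a factor of airway epithelium, was at 2.02 on lung replicate 1 and 2.22 on lung replicate 2, above the receptor range on both arrays, by 1 probe. Sox14 was lower at -1.26 by the mean of 2 probes. The testis gene Sox30 was at 0.44, Sox15 at -0.80 and Sox1 at -0.43. Sry was called lower at -0.51 (limma adjusted p = 0.0424) by 1 probe. Sox21 was at 0.06 and not called, with its 3 probes 2.92 apart. All of these but Sox2 lay within the receptor range. Sox3 had no probe.

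A probe for Sox6os, annotated as a transcript of the strand opposite Sox6 and named here after its value was seen, was at 2.36 and 2.57 on lung replicates 1 and 2. It lay above every Sox6 probe on both arrays, the highest of which was at 1.43 and 1.24. Smooth muscle genes, another mesenchymal set, had 1 of 8 higher in lung (Myh11, 1.80) and 7 lower, with a median of -1.72. Over all genes, 32.6% were called higher and 43.6% lower.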
